A study of Homo sapiens with 4 samples.

Results

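Keratins and vimentin build the intermediate filaments of the cytoplasm. The genes described here are 9 keratin genes (KRT80, KRT81, KRT7, KRT8, KRT18, KRT19, KRT10, KRT5 and KRT17) and VIM, together 10 of the 60721 genes counted. They were chosen by name as keratins of simple, basal and hair epithelia with vimentin, and the group was picked on a measured value, the higher KRT80 in cells treated with siRNA against TLN1. That contrast therefore describes KRT80 and does not test it. HS578T is an established line from a human breast carcinoma. Both groups of cells were co-transfected with GFP, one with a non-targeting siRNA (SCR) and the other with siRNA against TLN1 (siTLN1), at 1.6 µM of RNA. Polyadenylated RNA was sequenced after 48 h from 2 biological replicates a group, and nothing says further that they came from separate cultures, so p-values measure the spread between these samples. TLN1 encodes talin-1, which couples integrins to actin.

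Keratins are obligate partners: an acidic type I chain pairs with a basic type II chain, and these pairs polymerise. KRT8 with KRT18 is the first pair of simple epithelia, to which KRT7 and KRT19 are added. KRT5 with KRT14 marks basal layers, KRT17 is a type I keratin of basal and wounded epithelium, KRT10 belongs to differentiating epidermis, KRT80 is a type II keratin of the epithelial set and KRT81 is a hair keratin. Vimentin is a type III protein that polymerises with itself and is characteristic of mesenchymal cells.

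Intermediate filament proteins share a coiled-coil rod whose last stretch is strongly conserved. The coding bases for that stretch are shown for KRT17 and KRT14, because the RNA of both was lower in siTLN1 and reads of such close relatives can be alike. Each is the sense strand, 5′ to 3′, of the GENCODE 29 transcript with the longest complete reading frame (GRCh38), and capitals mark the 27 bases that code for the end of the rod.
KRT17: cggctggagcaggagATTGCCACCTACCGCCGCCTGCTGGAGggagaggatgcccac
KRT14: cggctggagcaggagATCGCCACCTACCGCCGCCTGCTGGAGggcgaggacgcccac

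KRT17 and KRT14 equalled each other at 54 of the 57 bases printed. Their longest common coding run held 59 bases, at coding bases 760 to 818 of KRT17.
KRT17 and KRT14: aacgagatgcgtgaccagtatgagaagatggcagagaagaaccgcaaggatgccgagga

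The share of a transcript's 50-base windows that also occur in a transcript of another gene was computed on both strands, since reads from such windows may be lost or misassigned. It was 0.42% for KRT80, 0.434% for KRT10, 10.8% for KRT7 and 16% for KRT17. It reached 38.2% for VIM, 41.3% for KRT8, 44.6% for KRT81 and 47.6% for KRT18. KRT8 shares windows with several of its pseudogenes, whose 51 entries together held from 335 to 483 counts a library, or 57% to 66.1% of the counts of KRT8 itself. The 68 pseudogene entries of KRT18 held only 1.46% to 2.03% of its counts. KRT17 shared most with its pseudogenes KRT17P1 (9.36% of its windows), KRT17P2 (8.74%) and KRT17P3 (7.93%), whose counts were not examined. KRT14 held fewer windows of KRT17 than KRT16 did, which held 0.999%. KRT81 shared 38.4% of its windows with KRT86, a hair keratin with which it has a common coding run of 605 bases. Counting ignored strand, and 24.3% of the exon bases of VIM, 17.1% of those of KRT18 and 7.63% of those of KRT8 also lie in exons on the opposite strand. For VIM these belong to VIM-AS1 and an unnamed gene, and for KRT8 and KRT18 to each other. Such opposite-strand genes also enter the shared windows. VIM-AS1 held 28.4% of the windows of VIM and KRT8 held 21.5% of those of KRT18. KRT7-AS, on the strand opposite to KRT7, held 10.4% of the windows of KRT7. Shared windows and opposite-strand exons are thus not separate measures for these genes. By shared windows and opposite-strand exons, the levels of VIM, KRT8, KRT18 and KRT81 are less certain than those of KRT80 and KRT10.

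Total counts ran from 31854322 to 46353297 a library. The targeted TLN1 stood at 868 and 874 CPM (counts scaled to library size, after TMM normalisation) in the SCR libraries and at 51.9 and 44.8 CPM in the siTLN1 libraries. The libraries of each group are called a and b, because the count columns carry no replicate number that matches the labels. In the authors' log2 CPM values of the tested members, the lower-numbered replicate of each group followed library a and the other followed library b. The labels name the cells epithelial. Of 18 luminal epithelial markers, 8 had enough counts to be tested, with summed levels of 152 and 186 CPM in SCR and 166 and 180 CPM in siTLN1. KRT18 alone gave 104 and 131 CPM of the SCR sums, and the other tested luminal markers were KRT8, KRT7, GATA3 (310 to 647 counts), MUC1 (298 to 517), FOXA1 (105 to 123), CLDN4 (35 to 60) and CDH1 (13 to 40). Of the 10 luminal markers below the filter, GRHL2 was at 0 in all 4 libraries and none, EPCAM included, had more than 6 counts in a library. All 16 mesenchymal markers were tested, with summed levels of 65990 and 63750 CPM in SCR and 70440 and 60960 CPM in siTLN1. Of 7 blood cell markers 2 were tested, CD3E, HBB and LYZ were among those at 0 throughout, and the summed level ran from 1.23 to 1.64 CPM. Of 6 endothelial markers 3 were tested, and the list’s summed level ran from 4.92 to 6.45 CPM, with no call in either list by edgeR. In bulk RNA, fewer cells with a transcript and less of it per cell cannot be told apart.

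Levels were compared between genes as FPKM, which is CPM divided by the summed exon length in kilobases. In SCR, VIM led at 746 ± 13.3 FPKM (SD, n = 2). KRT18 followed at 38.2 ± 6.15 FPKM and KRT17 at 33 ± 1 FPKM. KRT17 lay just under the lower KRT18 library, at 32.3 and 33.7 against 33.9 and 42.6 FPKM. KRT10 stood at 9.83 ± 0.74 FPKM, KRT8 at 2.75 ± 0.362, KRT7 at 1.83 ± 0.365 and KRT80 at 1.57 ± 0.156 FPKM (SD, n = 2 each). KRT7 and KRT80 overlapped in SCR, the former at 1.57 and 2.09 FPKM and the latter at 1.46 and 1.68. KRT81 was at 0.241 FPKM, and KRT5 and KRT19 were close to or at 0. Levels and order depend on the length used. With the length of the chosen transcript VIM was at 1808, KRT18 at 75.1 and KRT17 at 59.9 FPKM in SCR, and the order changed for KRT8. Its merged exons span 6881 bases against 1687 in the chosen transcript, and with transcript lengths KRT8 was at 11.2 ± 1.48 FPKM, beside KRT10 at 10 ± 0.753, KRT7 at 4.18 ± 0.832 and KRT80 at 1.78 ± 0.177.

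**Figure D1:**
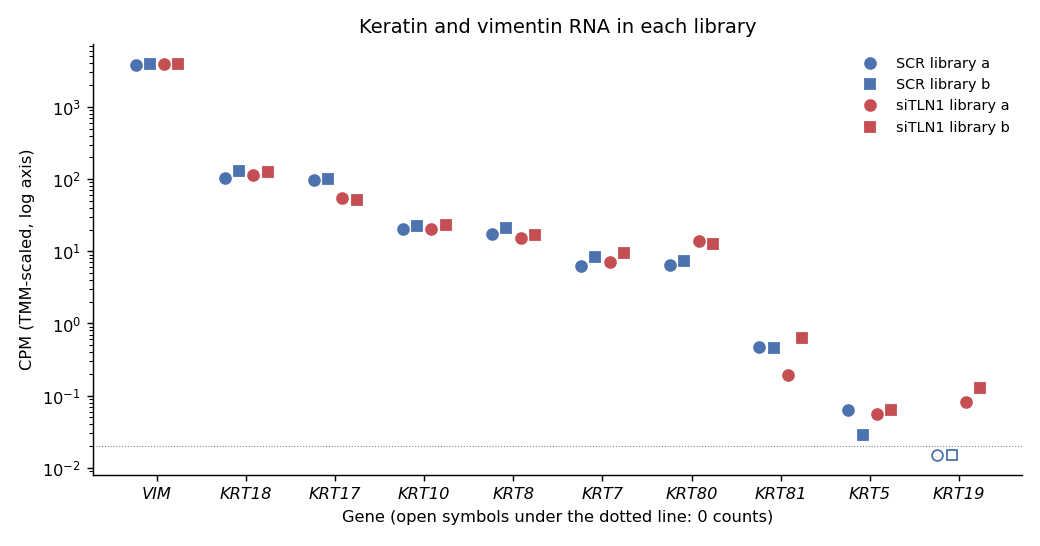
CPM of the 10 genes in each library on a log axis, SCR in blue and siTLN1 in red, library a as circles and b as squares. KRT80 is higher in both siTLN1 libraries (13.8 and 12.8 CPM) than in both SCR libraries (6.39 and 7.35 CPM), KRT17 is lower, and VIM lies between 3811 and 3968 CPM in all 4.

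KRT80 (ENSG00000167767.14; GRCh38, chromosome 12, 52168996 to 52192014, minus strand) had 203 and 256 counts in SCR and 502 and 601 in siTLN1. Scaled, these are 6.39 and 7.35 CPM against 13.8 and 12.8 CPM. Both siTLN1 libraries lay above both SCR libraries, and the gap between the groups exceeded the spread within either. The means were 6.87 ± 0.682 CPM and 13.3 ± 0.708 CPM (SD, n = 2 each), a difference of 0.95 ± 0.13 (log2 fold change ± SE). Leaving out each library in turn gave 0.85 to 1.06 on the log2 scale. Per exon length, KRT80 overlapped KRT7 in SCR and lay above it in siTLN1, at 3.16 and 2.93 FPKM against 1.79 and 2.39. With transcript lengths it stayed below KRT7, at a mean of 1.78 against 4.18 FPKM in SCR and 3.44 against 4.77 FPKM in siTLN1.

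None of the other type II members passed the test by edgeR, and whether they differ from KRT80 in response was not tested. KRT7 (ENSG00000135480.16; chromosome 12, 52232520 to 52252186, plus strand) was at 6.29 and 8.36 CPM in SCR and 7.17 and 9.58 CPM in siTLN1, and its groups overlapped. Its log2 fold change ± SE was 0.20 ± 0.17 (adjusted p = 0.592 by edgeR's quasi-likelihood test), and −0.031 without siTLN1 library b. KRT8 (ENSG00000170421.12; chromosome 12, 52897187 to 52949954, minus strand) was at 17.2 and 20.7 CPM in SCR and 15.1 and 17 CPM in siTLN1. The siTLN1 libraries lay just below the lower SCR library. The log2 fold change ± SE of KRT8 was −0.24 ± 0.12 (adjusted p = 0.301, edgeR).

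KRT81 (ENSG00000205426.10; chromosome 12, 52285913 to 52291534, minus strand) had 15 and 16 counts in SCR and 7 and 30 in siTLN1. The siTLN1 libraries fell on either side of SCR, and the log2 fold change ± SE was −0.078 ± 0.49 (adjusted p = 0.956, edgeR), which turned to 0.45 without siTLN1 library a. KRT5 (ENSG00000186081.12; chromosome 12, 52514575 to 52520530, minus strand) had 2 and 1 counts in SCR and 2 and 3 in siTLN1. It was not tested and has no row in the authors' log2 CPM table. No difference in KRT5 was detectable at this depth.

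Among type I members KRT17 fell and KRT18 and KRT10 did not pass the test. KRT17 (ENSG00000128422.17; chromosome 17, 41619442 to 41624842, minus strand) was at 96.8 and 101 CPM in SCR and 54.3 and 51.1 CPM in siTLN1. Both siTLN1 libraries lay far below both SCR libraries, at 0.533 of the SCR mean. The log2 fold change ± SE was −0.91 ± 0.094 (adjusted p = 1.88e-05, edgeR), and it ran from −0.95 to −0.86 with 1 library left out.

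KRT18 (ENSG00000111057.11; chromosome 12, 52948871 to 52952906, plus strand) was at 104 and 131 CPM in SCR and 115 and 124 CPM in siTLN1. The siTLN1 libraries lay between the SCR libraries. The log2 fold change ± SE was 0.024 ± 0.11 (adjusted p = 0.939, edgeR), turning to −0.13 when SCR library a was left out and −0.027 when siTLN1 library b was. KRT10 (ENSG00000186395.8; chromosome 17, 40818117 to 40822614, minus strand) was at 20.1 and 22.4 CPM in SCR and 20.3 and 22.9 CPM in siTLN1. Its groups overlapped, with a log2 fold change ± SE of 0.023 ± 0.11 (adjusted p = 0.941, edgeR) that turned to −0.05 when SCR library a was left out and −0.066 when siTLN1 library b was. KRT19 (ENSG00000171345.13; chromosome 17, 41523617 to 41528308, minus strand) had 0 counts in both SCR libraries, for which the exact Poisson 95% upper limits are 0.116 and 0.106 CPM (counting error only), and 3 and 6 counts in siTLN1. These are 0.0824 and 0.128 CPM. It too was not tested and has no row in the authors' log2 CPM table.

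VIM (ENSG00000026025.16; chromosome 10, 17228241 to 17237593, plus strand) was at 3811 and 3909 CPM in SCR and 3876 and 3968 CPM in siTLN1. The groups overlapped within a narrow range. The log2 fold change ± SE was 0.023 ± 0.11 (adjusted p = 0.94, edgeR), and its value kept its sign with each library left out, from 0.006 to 0.041. VIM-AS1, which overlaps VIM on the other strand, was at 2.33 and 2.27 CPM in SCR and 2.03 and 1.92 CPM in siTLN1.

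Of the 10 genes, 8 passed the filter on low counts, and the same 8 have a row in the authors' log2 CPM table. Of these, 1 was called higher (KRT80) and 1 lower (KRT17) at an adjusted p under 0.05 by edgeR. Over all 16137 genes tested, 6.07% were called, 2.3% higher and 3.77% lower. Since the group was picked on this contrast, nothing is read from the count. The median log2 fold change of the 8 was 0.023, against 0.0033 for all tested genes.

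**Figure D2:**
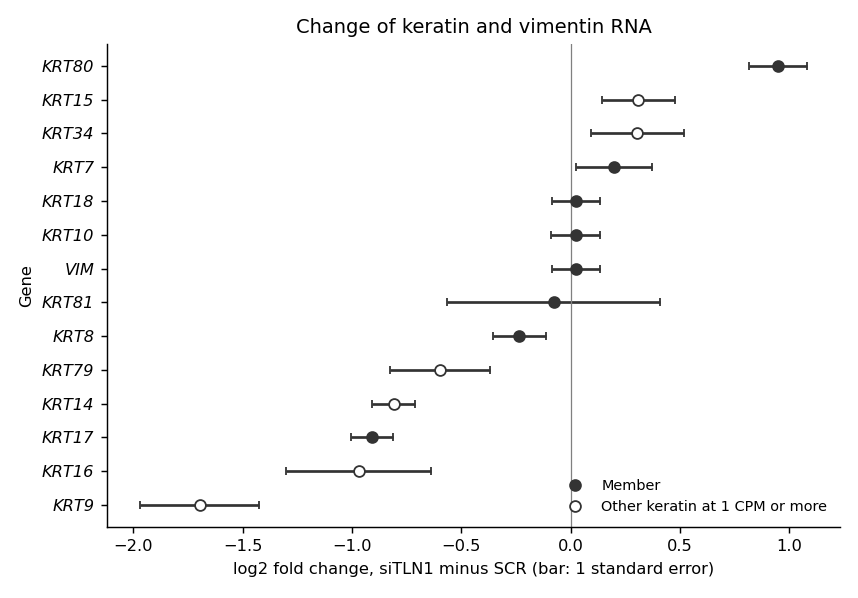
Log2 fold change, siTLN1 minus SCR, with 1 standard error, for the 8 tested members (filled) and the other keratins with at least 1 CPM in either group (open). KRT80 is the highest at 0.95, and KRT9, KRT16, KRT17 and KRT14 are the lowest, from −1.70 to −0.81.

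The remaining keratins were examined as a family. Of 54 type I and type II keratin genes, 19 had no count in any library and 16 were tested, 8 of each type. Among type II genes 1 was called higher (KRT80) and none lower, and among type I genes 3 were called lower and none higher, by edgeR. Over all tested genes 2.3% were called higher and 3.77% lower, and the type II call is the gene on which the group was picked. The type I genes called were KRT17, KRT14 and KRT9, and the median log2 fold change was −0.39 for type I and 0.036 for type II, against 0.0033 for all tested genes. KRT14 (ENSG00000186847.6; chromosome 17, 41582279 to 41586895, minus strand), the usual type I partner of KRT5, was at 109 and 127 CPM in SCR and 66.2 and 68.1 CPM in siTLN1. The groups lay well apart, differing by −0.81 ± 0.099 (log2 fold change ± SE; edgeR adjusted p = 9.77e-05). KRT9, a keratin of palm and sole epidermis, had 82 and 66 counts in SCR and 26 and 31 in siTLN1. Its log2 fold change ± SE was −1.70 ± 0.27 (adjusted p = 0.00111, edgeR).

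Other keratins above 1 CPM did not pass. KRT16, an epidermal keratin induced on wounding, was at 1.32 and 2.15 CPM in SCR and 0.577 and 1.15 CPM in siTLN1, a log2 fold change ± SE of −0.97 ± 0.33 (adjusted p = 0.114, edgeR). KRT16 passed with scaling by total counts (adjusted p = 0.0433, edgeR), and also when SCR library a (0.00306) or siTLN1 library b (0.009) was left out. KRT79, which passed without SCR library a (adjusted p = 0.0153, edgeR), had a log2 fold change of −0.60 (0.149), KRT15 one of 0.31 (0.327) and KRT34 one of 0.30 (0.473). KRT14 shares 23.8% of its 50-base windows with other genes, of which KRT16 holds 11.2% of all its windows. KRT17 and KRT16 share 0.999% of the windows of KRT17, and KRT9 shares none.

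Because chains of the types pair with each other, their summed levels were set side by side. Over the 16 tested keratins, type I RNA was at 127 and 146 FPKM in SCR and 97.1 and 101 FPKM in siTLN1. Type II RNA was at 7.08 and 8.86 FPKM in SCR and 8.5 and 9.4 FPKM in siTLN1. Type I thus exceeded type II in each library, by 18 and 16.5 times in SCR and 11.4 and 10.7 times in siTLN1. With transcript lengths the excess was smaller, 11.8 and 11 times in SCR and 8.73 and 7.97 times in siTLN1. These sums include the genes chosen above and are given as a description.

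Within type II, KRT80 held 20.7% and 19% of the summed FPKM in SCR and 37.2% and 31.2% in siTLN1. It overtook KRT8, which went from 35.3% and 34% to 25.9% and 26.3%. With transcript lengths the shares of KRT80 were 9.62% and 8.91% in SCR and 19.6% and 16% in siTLN1, and KRT8 remained the larger at 59.2% and 57.4% against 49.3% and 48.8%. Within type I, KRT14 went from 38% and 38.4% to 30.3% and 29.9%, KRT17 from 25.4% and 23.1% to 18.7% and 16.9%, and KRT18 from 26.7% and 29.1% to 38.6% and 39.9%. With transcript lengths KRT18 was the largest of these already in SCR, at 32.6% and 35.5%, and held 46.3% and 48% in siTLN1. KRT14 then went from 32.2% and 32.3% to 25.1% and 24.8%, and KRT17 from 28.8% and 26% to 20.7% and 18.8%. The level of KRT18 itself overlapped between the groups. VIM exceeded the keratins together 5.49 and 4.87 times in SCR and 7.09 and 6.95 times in siTLN1. With transcript lengths the excess was larger, 8.08 and 7.12 times in SCR and 10.3 and 10 times in siTLN1.

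**Figure D3:**
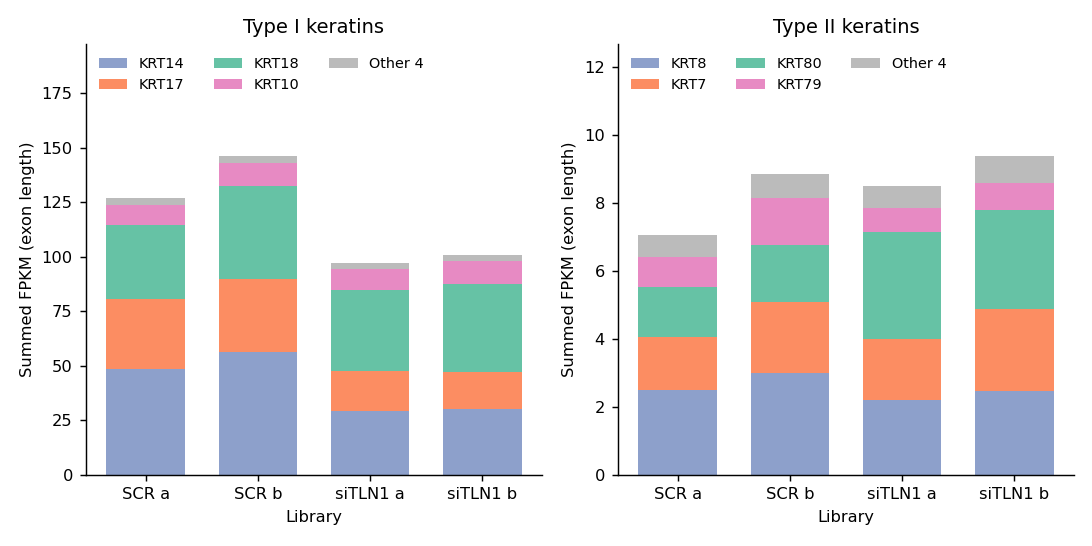
Summed FPKM of the 8 tested type I (left) and 8 tested type II (right) keratins in each library, stacked by gene, from 0 on axes that differ between the panels. Type I sums are 127 and 146 in SCR and 97.1 and 101 in siTLN1, and the KRT80 portion of type II is larger in both siTLN1 libraries.

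Type II genes and KRT18 lie together on chromosome 12 and the other type I genes on chromosome 17, so neighbouring genes were compared. Of 33 genes that start within 250 kb of the start of KRT80, itself included, 8 were tested and 2 were called, KRT80 and ACVR1B. Over all tested genes 6.07% were called. Since KRT80 was picked on this contrast, nothing is read from the count. ACVR1B, an activin receptor gene whose start lies at −240.3 kb, was at 20 and 20.3 CPM in SCR and 29.9 and 31.8 CPM in siTLN1, with a log2 fold change of 0.62 (adjusted p = 0.00161, edgeR). The genes between them did not pass, among them ATG101 with a log2 fold change of 0.012 and NR4A1 with −0.21. On the other side of KRT80, KRT7 starts 40.51 kb away, KRT86 57.29 kb (log2 fold change 0.15) and KRT81 99.52 kb away, and none passed.

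The window around KRT17 was added after its value was seen. It held 36 genes, KRT17 included, of which 12 were tested and 3 were called, against 6.07% of all tested genes. Since the window was centred on a gene already seen to be lower, nothing is read from the count. The 3 called, KRT9, KRT14 and KRT17, start between −52.78 kb and the start of KRT17, and KRT16 is the fourth tested gene in that stretch. Beyond it, KRT15 and KRT34 had positive log2 fold changes of 0.31 and 0.30, and EIF1 on the other side was at 0.017. Of 9 genes around VIM, 4 were tested and none passed by edgeR.

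**Figure D4:**
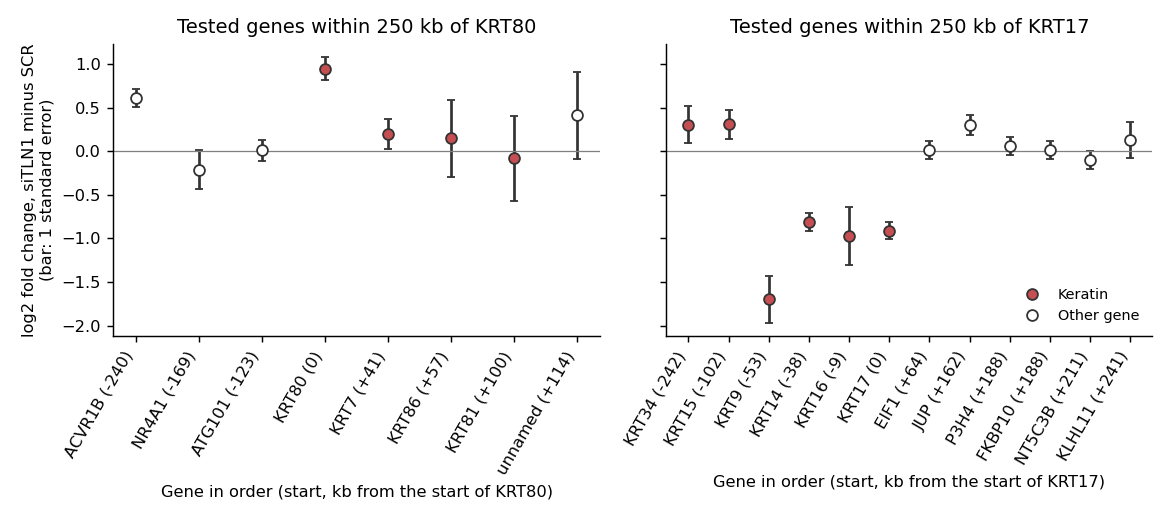
Log2 fold change, siTLN1 minus SCR, with 1 standard error, for tested genes within 250 kb of KRT80 (left) and of KRT17 (right) in gene order, keratins in red. The lower values on the right, from −1.70 to −0.81, belong to 4 adjacent tested keratins, and KRT80 stands above its neighbours on the left.

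Partners of the filaments were covered by lists. Desmosomes and hemidesmosomes anchor keratin filaments to neighbouring cells and to the matrix. Of 23 such genes and filament linkers, 16 were tested, 0 were called higher and 2 lower, with a median log2 fold change of −0.005. Over all tested genes 2.3% were called higher and 3.77% lower. COL17A1, a hemidesmosome collagen, had a log2 fold change of −0.76 (adjusted p = 0.0118, edgeR), and PKP3, a desmosome plaque protein, one of −0.62 (adjusted p = 0.0128, edgeR). COL17A1 missed the threshold without siTLN1 library a (adjusted p = 0.0563, edgeR) or b (0.0672), and PKP3 without SCR library b (0.0663) or siTLN1 library a (0.15). The most abundant linkers were PLEC, which encodes plectin (−0.040, adjusted p = 0.906), and DST, which encodes dystonin (0.24, adjusted p = 0.467), given as log2 fold changes with edgeR's adjusted p. DST passed without siTLN1 library b (adjusted p = 0.0298, edgeR).

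Of 14 other intermediate filament genes, 8 were tested, 1 was called higher and 0 lower, against 2.3% and 3.77% of all tested genes. LMNB1, the gene of the nuclear lamin B1, was at 140 and 135 CPM in SCR and 180 and 174 CPM in siTLN1, a log2 fold change of 0.36 (adjusted p = 0.0256, edgeR). It missed the threshold without SCR library b (adjusted p = 0.124, edgeR) and without siTLN1 library a (0.219) or b (0.065). LMNA had a log2 fold change of −0.086 and LMNB2 one of −0.29, and neither passed by edgeR, though LMNB2 did with DESeq2 (adjusted p = 0.0398). Of 16 genes of the cornified envelope, the protein shell of squamous cells, 9 had no count and 2 were tested, CSTA (log2 fold change 0.088) and SBSN (−0.027). Neither passed, by edgeR.

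Cell type markers were then compared between the groups. Of 8 tested luminal markers none was called by edgeR, where 6.07% of all tested genes were called. Their median log2 fold change was 0.095, and 5 had a positive value. KRT8 and FOXA1 (each −0.24) and CLDN4 (−0.11) had negative values. CDH1, the E-cadherin gene, had only 13 to 40 counts a library. It stood at 0.409 and 0.517 CPM in SCR and 0.797 and 0.851 CPM in siTLN1 (adjusted p = 0.192, edgeR). Of 10 tested basal markers 3 were called lower by edgeR, KRT14 and KRT17 among them. The basal regulator TP63 was at 4.28 and 3.33 CPM in SCR and 3.41 and 3.23 CPM in siTLN1. Of 16 tested mesenchymal markers 3 were called lower and 0 higher, where 3.77% of all tested genes were called lower. The 3 were CDH2 (N-cadherin), SPARC and COL5A1, with log2 fold changes of −0.89, −0.48 and −0.42. The median log2 fold change of the 16 was −0.081, and 5 of them had a positive value. The most abundant, FN1 and COL1A1, had log2 fold changes of 0.25 and −0.19 (adjusted p = 0.343 and 0.444, edgeR). SPARC missed the threshold when the log2 CPM values were tested by limma-trend, without a block (adjusted p = 0.0571). SPARC and COL5A1 each missed the threshold without either SCR library, with edgeR's adjusted p of 0.143 and 0.1 for SPARC and 0.0529 and 0.181 for COL5A1. SPARC also missed it without siTLN1 library a (0.0534) or b (0.0712), and COL5A1 without siTLN1 library b (0.223). The part of these markers in the keratin values was not tested.

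The genes most like KRT80 were those with the smallest Euclidean distance of log2 CPM, centred over the 4 libraries. The search covered 10485 genes whose mean reached 5 CPM. They were HHIP (distance 0.0977), BMP2 (0.0979), SOX4 (0.124), MN1 (0.144) and KIF5A (0.158). HHIP encodes a Hedgehog-binding protein and was at 91.2 and 102 CPM in SCR and 205 and 193 CPM in siTLN1. BMP2, a secreted ligand, was at 14.2 and 16.2 CPM in SCR and 28.1 and 27.2 CPM in siTLN1. SOX4, a transcription factor, was at 61.1 and 64 CPM against 119 and 111 CPM. In all 3, as in KRT80, SCR library a was the lowest and siTLN1 library a the highest. None of the 5 is a keratin, and a likeness over 4 libraries is a description only.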

How the data were processed

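The authors deposited unnormalised counts for each gene. These came from featureCounts 2.0.0, run on read pairs with no strand option against GENCODE 33 (GRCh38), per the file headers. STAR 2.7.9a and edgeR 3.34.1 are named in the submitters' processing notes. Exon lengths, a unit other than counts, stand in the same deposited table. The deposited log2 CPM table holds 16137 genes. Symbols were matched by Ensembl identifier without version, for all 10 members. Count columns were mapped by name to groups only, and 0 columns were left unmapped. Genes passing filterByExpr (minimum count 10, minimum total 15) were scaled by TMM and tested with edgeR 4.0.16 (R 4.3.3; glmQLFit robust, glmQLFTest) with Benjamini-Hochberg adjustment over 16137 genes at 0.05. With 2 libraries a group an exact permutation test cannot go below 0.333. The members and lists were chosen with earlier results of these data known. Named genes are the members, keratins at 1 CPM or more, up to 3 called and the 2 most abundant genes of each list (not all are printed), genes within 250 kb of KRT80 and VIM, and the 5 nearest to KRT80. Luminal markers other than members, and TP63, and the genes around KRT17, were added after their values were seen. Alternatives were RLE scaling, total counts, no filter, a mean of 10 counts, DESeq2 1.42.0, limma 3.58.1 (voom, and trend on the deposited log2 CPM), a replicate block and each library left out. Transcript lengths from GENCODE 29 were added after seeing the data. Sequences were read with Biopython 1.88. The procedure was tested on simulated data. Some named genes and sequences are not reported here.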

Additional observations from a re-analysis of the deposited data

How the results depend on the processing

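KRT80 and KRT17 kept their direction and size under every alternative run, with log2 fold changes of 0.95 to 0.96 and −0.91 to −0.90 with all 4 libraries. Members called numbered 2 in every fit, those with 1 library left out included (2 to 2, with 1 to 1 higher and 1 to 1 lower), except with the replicate block. Over all genes, those called were 347 to 1116 with 1 library left out (103 to 503 higher, 244 to 613 lower). The fewest came without siTLN1 library a, and an arm of 1 library is then assumed to vary like the other group. With no filter on low counts 389 genes were lower, with 32708 genes tested in place of 16137. Of 41 named genes with all 4 libraries, 319 of 328 values kept direction and call, 1 was weaker, 8 were stronger and 0 reversed. With 1 library left out, 17 of 164 log2 fold changes of these genes reversed in sign.

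The labels give both groups replicate numbers. In the count column names, the a libraries share a number, and the b libraries share another. No source says what either kind of number marks. The 2 differences between replicates correlated across genes at 0.19 (0.54 at 5 CPM or more). With the replicate block, limma-trend on the deposited log2 CPM called 3650 genes, 1720 higher and 1930 lower, and 3 members, 2 of them lower. The added member is KRT8 (log2 fold change −0.23, adjusted p = 0.0401). The block also brought KRT16 (adjusted p = 0.00156), KRT79 (0.0255), LMNB2 (0.000125), DST (0.0113) and EGFR (0.0144) past the threshold.

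With 1 library left out, signs turned for genes that did not pass. The ranges of log2 fold changes were −1.26 to 0.45 for KRT81, −0.031 to 0.42 for KRT7, −0.13 to 0.20 for KRT18, −0.066 to 0.11 for KRT10, −0.21 to 0.056 for LMNA, −0.19 to 0.13 for PLEC, −0.035 to 0.47 for DST, −0.025 to 0.21 for CSTA, −0.15 to 0.097 for SBSN, −0.50 to 0.18 for NR4A1 and −0.099 to 0.14 for ATG101. The values without SCR library a were −0.13 for KRT18, −0.050 for KRT10, −0.022 for CSTA, 0.097 for SBSN and −0.099 for ATG101. Without siTLN1 library b they were −0.027, −0.066, −0.025, 0.0014 and −0.051, and 0.051 for PLEC. The cause was not tested. KRT81, KRT5 and KRT19 had at most 30 counts in a library.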

Other observations

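KRT75, a type II keratin of the hair follicle that starts 242.4 kb from KRT80, had 0 and 2 counts in SCR and 21 and 10 in siTLN1. It did not pass the filter on low counts, was not tested, and was singled out after its values were seen. Its level in siTLN1 was 0.577 and 0.213 CPM, with exact Poisson 95% intervals of 0.357 to 0.882 and 0.102 to 0.391 CPM that cover counting error only. Of its 50-base windows, 7.82% occur in transcripts of other genes.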
